A study of Mus musculus with 5 samples.

Results

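The Hedgehog receptors and Gli factors are 7 genes taken by their symbols, by a rule that uses no measured value but was set with earlier results of these data known: the receptor *Ptch1*, the co-receptors *Boc* and *Cdon*, the transducer *Smo*, the inhibitor *Sufu* and the transcription factors *Gli2* and *Gli3*. All 7 were among the 12588 gene sums of the table, with 11 of its 22227 listed transcripts. A gene sum is the normalized count of a gene added over its listed transcripts. The libraries came from mouse neural stem/progenitor cells (NSPCs) of C57BL/6J mice, grown without treatment under proliferation conditions in medium that held EGF and FGF-2 at 20 ng/ml each. Of the 5 libraries, 2 were labelled WT (p75NTR+/+, litter mates; replicates 1 and 4) and 3 were labelled p75NTR-/- (replicates 1, 2 and 4). The labels give the age as E12.5, whereas the study's methods describe adult NSPCs. The mice labelled p75NTR-/- carry a constitutive mutation of *Ngfr*, so that the cultures are no model of a loss restricted to stem cells. The study describes 4 replicates from independent NSPC preparations, more than the libraries analysed here under either label. The p-values measure the spread between these few cultures.

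In the Hedgehog pathway, the membrane protein Ptch1 holds the seven-pass protein Smo inactive until a Hedgehog ligand binds Ptch1, and Boc and Cdon help to present the ligand. Active Smo gathers in the primary cilium and releases the Gli proteins from Sufu. Gli2 acts mainly as an activator and Gli3, once cut by the proteasome, mainly as a repressor. *Ptch1*, *Gli1* and *Hhip* are themselves targets of the pathway, and Hedgehog signalling is known to maintain neural stem cells of the ventral forebrain and of the adult subventricular zone.

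Before any comparison, *Ngfr*, which encodes p75NTR, was examined in every library. Its transcript had 0.98 and 2.08 normalized counts in the libraries labelled WT, and 9.89, 141 and 251 in the libraries labelled p75NTR-/-. This order goes against the labels. The count covers the whole transcript and does not separate a deleted exon, so that it cannot check the deletion itself, and each direction given here rests on the labels as deposited. Recovered totals were 11688211 to 14452396 counts per library. The first principal component of 10786 gene sums (51.7% of the variance) set both libraries numbered 4 apart from the other 3, and the second (36.5%) set WT replicate 1 apart. WT replicate 1 differed from the mean of the other 4 libraries by at least 1 on the log2 scale in 820 of those genes (7.60%). All 8 NSPC markers were listed, with a summed level of 7873 to 9420 TPM, the transcript abundance scaled for length and library size, while 0 of 6 microglial markers and 1 of 5 endothelial markers were listed. Astrocyte markers (5 of 5 listed, *Gfap* among them) summed to 938 and 1600 TPM under the WT label and to 635 to 1089 TPM under the p75NTR-/- label, with the highest sum in WT replicate 1, where *S100b* and *Gja1* were high, whereas *Gfap* was at 9.96 TPM there and at 28.2 and 30.5 TPM in the libraries numbered 4. Neuronal markers (3 of 6 listed) summed to 664 and 625 TPM in the libraries numbered 4 and to 917 to 974 TPM in the other 3. Nearly all of this sum was *Map2*, with 654 and 617 TPM against 907 to 966 TPM. *Tubb3* (9.24 and 7.58 against 7.06 to 10.6 TPM) and *Neurod1* (1.02 and 0.80 against 0.47 to 0.81 TPM) overlapped. Markers of the oligodendrocyte lineage (5 of 7 listed) summed to 364 and 346 TPM against 632 to 946 TPM, mostly from *Olig1* and *Olig2*. The part of these markers in the values that differ by replicate number was not tested. In bulk RNA, fewer cells of a type and less RNA per cell cannot be told apart.

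Where more than 1 transcript was listed, the members' coding ends differed. The first 45 coding bases of the 3 listed *Ptch1* transcripts are shown, since they encode different amino termini of the receptor, and the capitals mark the start codon. They were read from the GENCODE vM21 annotation of GRCm38, on the minus strand, at chr13:63565476-63565520 for ENSMUST00000021921 and at chr13:63548082-63548126 for the others.
ENSMUST00000021921: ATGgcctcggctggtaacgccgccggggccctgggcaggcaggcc
ENSMUST00000192155: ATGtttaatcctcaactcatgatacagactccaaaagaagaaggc
ENSMUST00000195756: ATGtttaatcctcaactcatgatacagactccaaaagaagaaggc
The first of these has 23 exons and encodes 1434 residues. ENSMUST00000192155 has 24 exons, starts from another first exon and encodes 1297 residues from a start codon further downstream. ENSMUST00000195756 has the same start codon but 7 exons and no annotated stop codon. The last 45 coding bases of the 3 listed *Sufu* transcripts are shown because 1 of them ends differently, and here the capitals mark the stop codon. They lie on the plus strand, at chr19:46485900-46485944 for the first and second and at chr19:46475710-46475754 for the last.
ENSMUST00000039922: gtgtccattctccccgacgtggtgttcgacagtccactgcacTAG
ENSMUST00000111867: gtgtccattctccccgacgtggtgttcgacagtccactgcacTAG
ENSMUST00000118440: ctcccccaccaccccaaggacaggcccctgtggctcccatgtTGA
The first and second encode 484 and 485 residues, and ENSMUST00000118440 encodes 467 residues with another carboxy terminus. The other 5 members each had 1 listed transcript, namely ENSMUST00000001812 (*Smo*, chr6:29735694-29761365, 12 exons), ENSMUST00000062483 (*Gli2*, chr1:118834132-119053619, 14 exons), ENSMUST00000110510 (*Gli3*, chr13:15463980-15730026, 15 exons), ENSMUST00000114634 (*Boc*, chr16:44485049-44558897, 19 exons) and ENSMUST00000119129 (*Cdon*, chr9:35421558-35507652, 20 exons). No exonic base of these transcripts was shared with another gene on either strand.

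Per transcript length, the members covered a wide range of levels. *Smo* had the highest mean, with 47.5 and 40.1 TPM under the WT label and 42.9, 45.3 and 36.7 TPM under the p75NTR-/- label. *Ptch1* followed with 37.6 and 17.0 against 12.4, 20.6 and 17.0 TPM, and *Sufu* with 11.5 and 9.71 against 14.9, 13.8 and 9.64 TPM. The co-receptors were lower. *Cdon* had 2.14 and 4.98 against 5.42, 4.23 and 5.10 TPM, and *Boc* had 4.17 and 3.68 against 2.89, 2.80 and 3.48 TPM. The Gli factors were the lowest of the 7, with 1.17 and 1.33 against 0.64, 1.12 and 1.51 TPM for *Gli2* and with 0.68 and 0.87 against 0.79, 0.84 and 0.69 TPM for *Gli3*. Among neighbours in this order, the ranges over the 5 libraries were separate for *Sufu* and *Cdon* and for *Boc* and *Gli2*, and overlapped for *Smo* and *Ptch1*, *Ptch1* and *Sufu*, *Cdon* and *Boc*, and *Gli2* and *Gli3*. Within a library, *Smo* was above *Ptch1* in 5 of 5 libraries, whereas *Ptch1* above *Sufu*, *Cdon* above *Boc* and *Gli2* above *Gli3* held in 4 of 5.

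**Figure D1:**
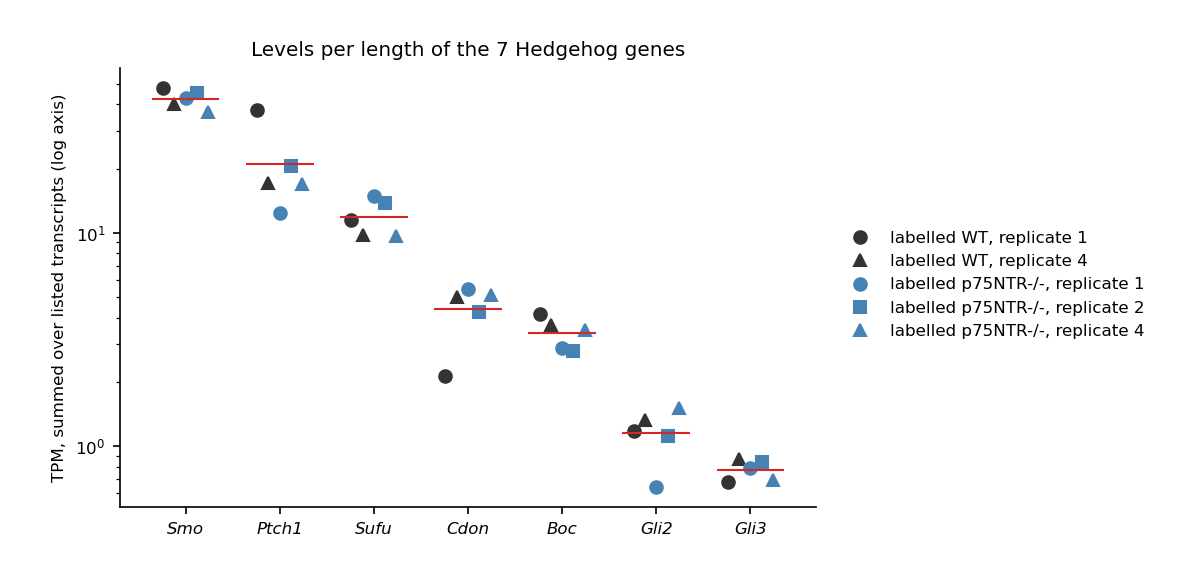
Level per length of each of the 7 Hedgehog genes (TPM summed over the listed transcripts, log axis), with 1 point per library, colour for the label, shape for the replicate number and a red line at the mean of 5 libraries. *Smo* lies at 36.7 to 47.5 TPM and *Gli3* at 0.68 to 0.87 TPM, and *Ptch1* and *Cdon* each have WT replicate 1 away from their other 4 libraries.

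To ask whether the pathway's core differed with p75NTR, the labels were compared by limma on log2(normalized count + 1) over all 12588 gene sums, and a gene was called when it had a mean of 50 or more normalized counts, changed by 1.5-fold or more, and reached an adjusted p (Benjamini-Hochberg) under 0.05. The mean of each of the 7 members passed 50 normalized counts, so that no member was left out. By these criteria 0 of 7 members were called, against 0.00794% of all gene sums (1 of 12588). At an unadjusted p under 0.05 there were also 0 of 7, against 2.08% of gene sums (262). That count rested on single libraries, since it was 1759 without WT replicate 4 and 1370 without p75NTR-/- replicate 4. Without WT replicate 4, which leaves WT replicate 1 alone under its label, *Ptch1* and *Cdon* had an unadjusted p of 0.026 and 0.0090 and an adjusted p of 0.33 and 0.32 by limma. DESeq2 on the recovered counts called 0 of 7 members and 0.0556% of gene sums, and edgeR called 0 members and 0 gene sums, with 260 at an unadjusted p under 0.05. The median log2 difference (p75NTR-/- minus WT) was -0.08 over the members and 0.02 over the 10786 gene sums with a mean of at least 50 normalized counts. With 2 against 3 libraries, an exact permutation test of a single gene could not give a p below 0.1.

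*Ptch1*, the receptor and itself a pathway target, was the most variable member. Its gene sum was 3572 and 1357 normalized counts in the libraries labelled WT and 1164, 1929 and 1535 in the libraries labelled p75NTR-/-. WT replicate 1 was 2.43-fold above the geometric mean of the other 4, and WT replicate 4 lay inside the range of the p75NTR-/- label. The fitted difference was -0.54 ± 0.48 on the log2 scale (SE; 95% interval -1.76 to 0.68), and limma's adjusted p was 0.93. Without WT replicate 1 it was 0.16, so that its direction rested on that library. Between the replicates numbered 1 the difference was -1.62, and between those numbered 4 it was 0.18. The coefficient of variation over 5 libraries was 50.8%, against 2.34% from counting alone.

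The co-receptor *Cdon* varied in the opposite way. It had 190 and 442 normalized counts under the WT label and 476, 369 and 459 under the p75NTR-/- label, with WT replicate 1 at 0.44 times the geometric mean of the other 4 libraries. The fitted difference was 0.57 ± 0.40 (95% interval -0.44 to 1.58), with an adjusted p of 0.93 by limma, and it was -0.03 without WT replicate 1. Between the replicates numbered 1 it was 1.32, whereas between those numbered 4 it was 0.05. In WT replicate 1 the astrocyte markers *S100b* (483 TPM, against 118 to 164 TPM in the other 4) and *Gja1* (705 TPM, against 191 to 474 TPM) were highest as well, while *Gfap*, *Aqp4* and *Aldh1l1* were highest in a library numbered 4. Their part in the *Ptch1* and *Cdon* values was not tested.

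*Boc*, the other co-receptor, was the only member of the 7 whose labels did not overlap. The libraries labelled WT had 294 and 259 normalized counts, and those labelled p75NTR-/- had 201, 193 and 248. The difference was -0.37 ± 0.19 (95% interval -0.87 to 0.12), with an unadjusted p of 0.11 and an adjusted p of 0.93 by limma. Of the 10786 gene sums with a mean of at least 50 normalized counts, 6.96% were lower without overlap under the p75NTR-/- label and 7.76% were higher without overlap. Between the replicates numbered 1 *Boc* differed by -0.55, and between those numbered 4 by -0.06. Leaving out single libraries gave -0.48 to -0.28, with the sign kept in 5 of 5.

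*Smo* was even across libraries, with 2118 and 1782 normalized counts under the WT label and 1883, 1977 and 1650 under the p75NTR-/- label. Its labels overlapped, and its coefficient of variation was 9.52%. The difference was -0.08 ± 0.18 (95% interval -0.55 to 0.38; limma's adjusted p 0.96), and it was 0.04 without WT replicate 1.

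*Sufu*, which binds Gli proteins and holds them in the cytoplasm, had 338 and 282 normalized counts under the WT label against 429, 398 and 284. Both libraries numbered 4 were the lowest of the 5, by 0.45 on the log2 scale below the mean of the others. The difference between labels was 0.24 ± 0.25 (95% interval -0.39 to 0.87), with an adjusted p of 0.93 by limma. It was 0.35 between the replicates numbered 1 and 0.01 between those numbered 4.

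Of the Gli factors, *Gli2* had 108 and 123 normalized counts under the WT label and 58.4, 102 and 142 under the p75NTR-/- label. Here both libraries numbered 4 were the highest, by 0.60 on the log2 scale above the mean of the others, and p75NTR-/- replicate 1 was the lowest. The difference between labels was -0.28 ± 0.40 (95% interval -1.31 to 0.74), with an adjusted p of 0.93 by limma. It was 0.06 without p75NTR-/- replicate 1, -0.88 between the replicates numbered 1 and 0.20 between those numbered 4. *Gli3* had 75.6 and 95.7 against 86.1, 91.3 and 77.1 normalized counts, with overlapping labels. Its coefficient of variation of 10.3% was no larger than the 11.1% that counting alone gives at this depth. The difference was -0.01 ± 0.19 (95% interval -0.49 to 0.48; limma's adjusted p 1.00), and it was 0.19 between the replicates numbered 1 and -0.31 between those numbered 4.

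**Figure D2:**
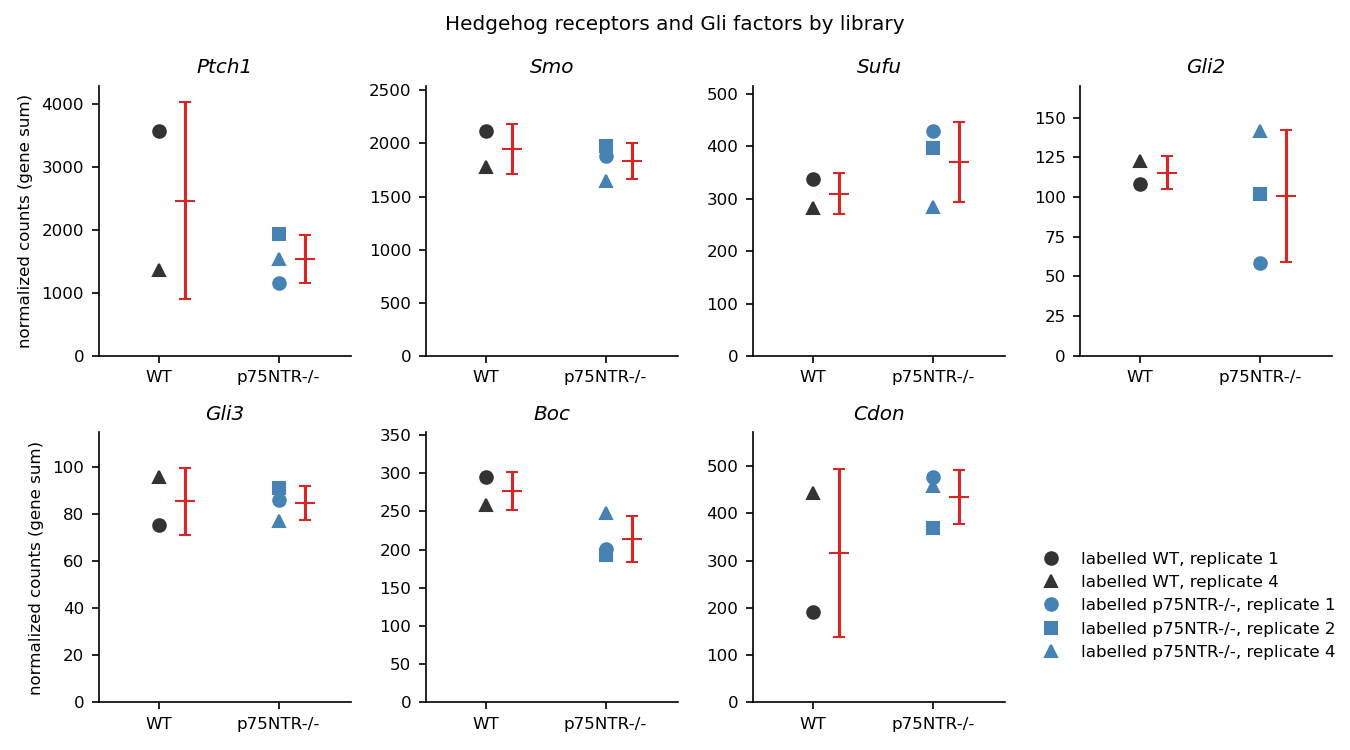
Gene sums of the 7 Hedgehog members in normalized counts (vertical axes from 0), with 1 point per library and red marks for the mean ± SD of 2 libraries labelled WT and 3 labelled p75NTR-/-. For *Ptch1* 1 library labelled WT stands at 3572, for *Cdon* the same library stands at 190, and for *Boc* the labels do not overlap.

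**Figure D3:**
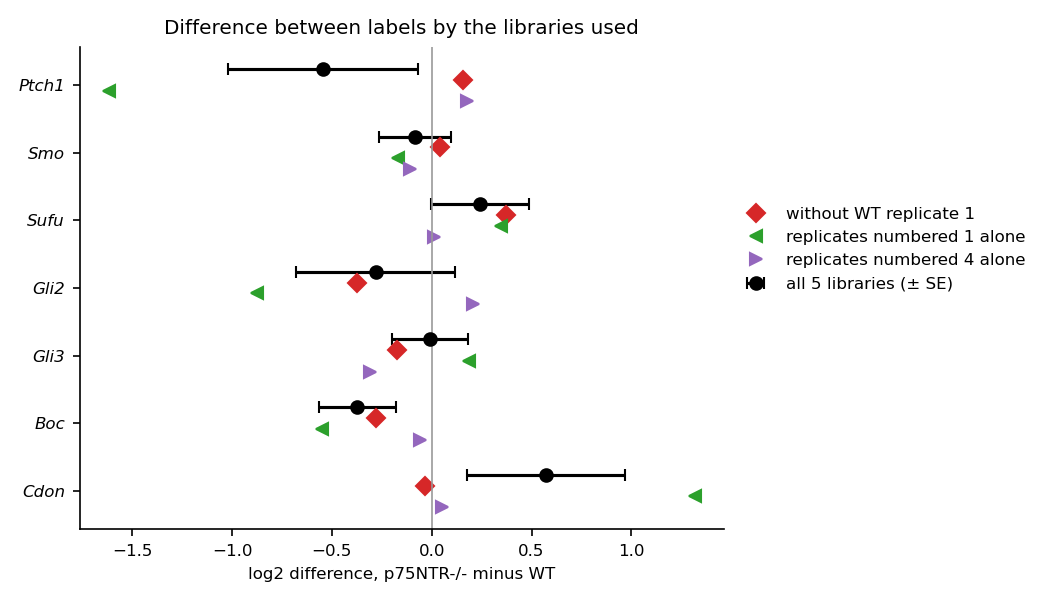
Log2 difference (p75NTR-/- minus WT) of each member over all 5 libraries (± SE), without WT replicate 1, and between the replicates sharing number 1 or number 4 alone. *Ptch1* goes from -0.54 to 0.16 and *Cdon* from 0.57 to -0.03 without WT replicate 1.

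Ratios within a library compare parts of the pathway per length. The ratio of *Ptch1* to *Smo* was 0.79 and 0.42 under the WT label and 0.29, 0.46 and 0.46 under the p75NTR-/- label. *Boc* to *Cdon* was 1.95 in WT replicate 1, where alone among the 5 *Boc* exceeded *Cdon*, 0.74 in WT replicate 4, and 0.53, 0.66 and 0.68 under the p75NTR-/- label. The ratio of the repressor gene *Gli3* to *Gli2* was 0.58 and 0.65 against 1.23, 0.75 and 0.46, so that *Gli3* exceeded *Gli2* only in p75NTR-/- replicate 1 of the 5 libraries. *Sufu* to the sum of *Gli2* and *Gli3* was 6.19 and 4.41 against 10.4, 7.02 and 4.38. For *Gli3* to *Gli2* and for *Sufu* to both, the values labelled WT lay inside the range of those labelled p75NTR-/-.

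At the transcript level 0 of the members' 11 transcripts were called, against 0.0135% of all 22227 transcripts by limma, and edgeR and DESeq2 called none of the 11. Most of the *Ptch1* signal lay in ENSMUST00000021921, the form of 1434 residues, with 3184 and 1116 normalized counts under the WT label and 1049, 1806 and 1524 under the p75NTR-/- label, or 82.3% to 99.3% of the gene sum. The high value of WT replicate 1 was therefore in the main form as well. ENSMUST00000192155, the form of 1297 residues, had 388 and 215 against 115, 124 and 0 normalized counts. Its share of the *Ptch1* counts was 10.9% (Wilson 95% interval 9.88 to 11.9) and 15.9% (13.99 to 18.0) under the WT label, and 9.86% (8.29 to 11.7), 6.41% (5.32 to 7.72) and 0% under the p75NTR-/- label. The 0 of 1453 counts in p75NTR-/- replicate 4 allows a share of up to 0.206%. These intervals cover counting error only, and Salmon apportioned reads between forms that differ in few bases, since 78 of this transcript's 7002 bases are in no other annotated transcript. The labels did not overlap for this form. Of gene sums with a mean of at least 50 normalized counts, 6.96% were lower without overlap, and the share over transcripts was not counted. The form's difference of -3.57 ± 2.49 (95% interval -10.3 to 3.11) had an adjusted p of 0.96 by limma over transcripts, and, with 1 library at 0, its size depends on the pseudocount. The count models gave -1.94 (edgeR) and -1.95 (DESeq2).

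For *Sufu*, the form with the other carboxy terminus, ENSMUST00000118440, had 36.3 and 77.0 normalized counts under the WT label and 94.0, 44.5 and 78.2 under the p75NTR-/- label. Its share of the *Sufu* counts was 10.8% (Wilson 95% interval 7.90 to 14.5) and 27.3% (22.3 to 32.9) against 21.9% (18.3 to 26.0), 11.2% (8.22 to 15.0) and 27.5% (22.5 to 33.1). The intervals of the lowest and highest libraries were apart, while each label held both a low and a high share. Here too the intervals cover counting error only. ENSMUST00000111867 had 150 and 83.2 against 164, 153 and 99.3 normalized counts, and ENSMUST00000039922 had 151 and 122 against 171, 201 and 107. Of the 1747 bases of ENSMUST00000111867, 0 are in no other annotated transcript and 3 in no other listed one. Its counts therefore rest on how Salmon apportioned shared reads. For these 3 forms limma's adjusted p was 0.96 to 0.97 over transcripts.

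**Figure D4:**
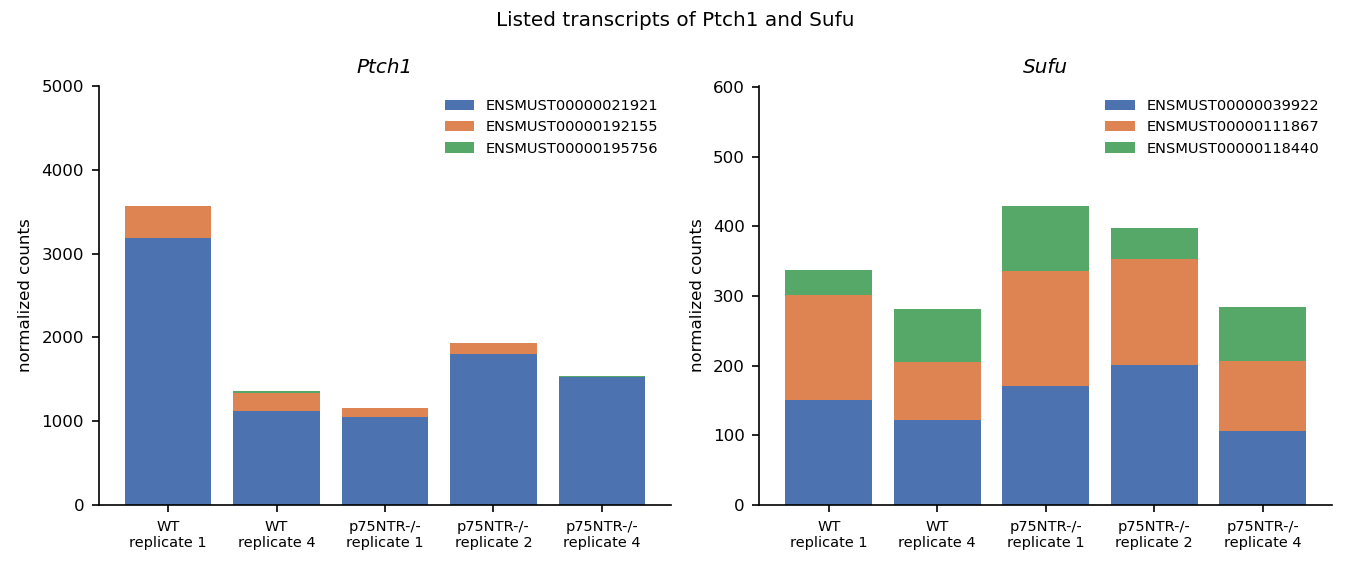
Normalized counts of the listed *Ptch1* and *Sufu* transcripts, stacked, in each library. ENSMUST00000021921 makes up 82.3% to 99.3% of the *Ptch1* sum, and ENSMUST00000192155 is at 0 in p75NTR-/- replicate 4.

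The wider pathway was described by 6 lists of genes that sort it by role. Of the ligands and their release, 4 of 9 genes were analysed (*Shh*, *Ihh*, *Hhat*, *Scube1* and *Scube2* were not analysed here), and 0 were called. *Disp1* and *Disp2* encode the membrane proteins that release the lipid-anchored ligand. *Disp1* had 333 and 249 normalized counts under the WT label against 257, 309 and 268, and *Disp2* had 169 and 180 against 99.0, 106 and 169. The ligand gene *Dhh* had 5.89 and 32.3 against 19.8, 13.2 and 67.6 normalized counts.

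Of the other receptors and binding proteins, 6 were analysed and 0 were called. All 4 with a mean of at least 50 had a positive log2 difference, with a median of 0.32 and overlapping labels, where 5671 of all 10786 gene sums at that mean were positive. Without WT replicate 4, *Gas1* and *Lrp2* were at -0.05 and -0.21. *Gas1*, a co-receptor anchored to the membrane by a lipid, had 100 and 49.9 normalized counts under the WT label and 94.0, 141 and 68.7 under the p75NTR-/- label (0.45 ± 0.44). *Lrp2* had 185 and 107 against 164, 165 and 152. The glypican gene *Gpc4* had 359 and 351 against 853, 408 and 347, with p75NTR-/- replicate 1 high alone, and its difference of 0.48 fell to 0.08 without that library.

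Among 17 genes that regulate Smo at the cell surface and cilium, 15 were analysed (*Gpr175* was not, and *Adrbk1* is an older symbol of *Grk2*, which was), 0 were called and 1 had an unadjusted p under 0.05, a level that 2.08% of all gene sums reached. That gene was *Efcab7*, whose product anchors the EVC complex that works with Smo at the base of the cilium. It had 132 and 172 normalized counts in the libraries labelled WT and 51.5, 64.9 and 79.2 in those labelled p75NTR-/-. The labels did not overlap, as in 6.96% of gene sums in this direction. The difference was -1.21 ± 0.26 (95% interval -1.87 to -0.56), with an unadjusted p of 0.0050 and an adjusted p of 0.93 by limma, and DESeq2 and edgeR gave adjusted p of 0.95 each. It was -1.34 between the replicates numbered 1 and -1.11 between those numbered 4, and -1.40 to -1.02 when single libraries were left out. For the genes of the EVC complex itself the labels overlapped, with 513 and 571 against 600, 599 and 474 normalized counts for *Evc* and 458 and 586 against 567, 624 and 543 for *Evc2*. *Arrb1* had 81.5 and 104 against 42.6, 87.7 and 88.7, and *Tulp3*, which carries receptors into the cilium, had 353 and 722 against 612, 535 and 856.

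Of 20 genes of Gli processing, 19 were analysed (*Gli1* was not analysed here), and 0 were called. *Gsk3b*, one of the kinases that phosphorylate Gli proteins before they are cut, had 1413 and 1111 normalized counts under the WT label and 921, 1012 and 1002 under the p75NTR-/- label, without overlap (-0.36 ± 0.18; limma's adjusted p 0.93). *Prkar1a*, a regulatory subunit gene of protein kinase A, did not overlap in the other direction, with 5204 and 5544 against 5864, 5588 and 5632 normalized counts (0.08). In these directions 6.96% and 7.76% of gene sums did not overlap. *Stk36* had 211 and 118 against 110, 109 and 145. *Prkacb*, which encodes a catalytic subunit of protein kinase A, followed the replicate number, with 2975 and 2870 normalized counts in the libraries numbered 4 and 1098 to 1212 in the other 3. Its difference was -0.14 between the replicates numbered 1 and -0.05 between those numbered 4.

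Cilium transport was represented by 27 of 29 genes (*Tctn2* and *Talpid3* were not analysed here), each with a mean of at least 50 normalized counts, of which 12 had a positive and 15 a negative difference, and 0 were called. *Wdr19* had 471 and 315 normalized counts under the WT label and 206, 264 and 315 under the p75NTR-/- label, where the lowest WT and the highest p75NTR-/- library were 315.2 and 314.8. Its difference was -1.19 between the replicates numbered 1 and 0.00 between those numbered 4. *Bbs4* had 174 and 209 against 137, 127 and 192, and *Ift52* had 602 and 552 against 496, 414 and 557.

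Of the known targets, 14 were analysed and 0 were called, while *Gli1*, *Foxf1*, *Foxa2*, *Foxd1*, *Nkx2-1*, *Nkx6-1* and *Igf2* were not analysed here. Of the 9 with a mean of at least 50, 8 had a positive and 1 a negative difference, with a median of 0.14 and overlapping labels. Among all 10786 gene sums at that mean, 5671 were positive. The low gene *Nkx6-2* had 2.94 and 4.16 normalized counts under the WT label and 9.89, 8.41 and 7.40 under the p75NTR-/- label. It was the only target of the 14 with an unadjusted p under 0.05 by limma (0.0039, adjusted p 0.93), a level that 2.08% of all gene sums reached. DESeq2 gave it an unadjusted p of 0.28, and edgeR left it out for its low counts. *Hhip*, which binds the ligand and is induced by the pathway, had 34.4 and 23.9 normalized counts against 20.8, 37.2 and 29.6, with overlapping labels (-0.01 ± 0.31). Cyclin genes had their low value in WT replicate 1. *Ccnd1* had 2250 and 9953 normalized counts under the WT label against 8964, 8336 and 8677, and *Ccnd2* had 1714 and 4466 against 3813, 3103 and 3812. The difference of *Ccnd1* was 0.87 ± 0.64 with an adjusted p of 0.93 by limma, and it was -0.20 without WT replicate 1. *Olig2*, a ventral progenitor factor, had 704 and 701 normalized counts in the libraries numbered 4 and 1210 to 1987 in the other 3. Its difference between labels was 0.55 over all libraries and -0.01 between the replicates numbered 4. In all, the 6 lists held 84 listed genes, 74 of them with a mean of at least 50, of which 40 had a positive and 34 a negative difference, with a median of 0.00.

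**Figure D5:**
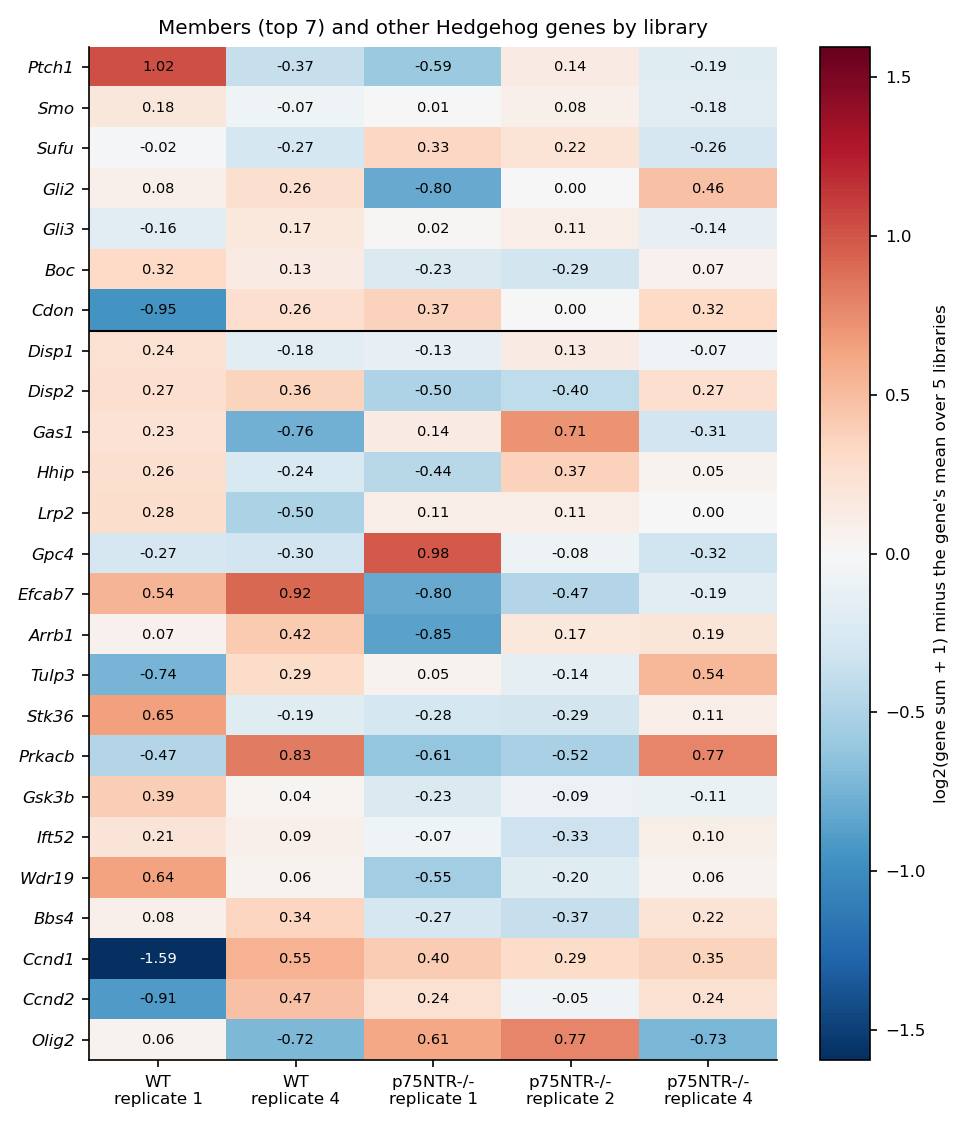
Log2(gene sum + 1) minus the gene's mean over 5 libraries for the 7 members (above the line) and the named genes of the pathway lists, by library, with values printed in the cells. *Ptch1* is highest and *Cdon*, *Ccnd1* and *Ccnd2* are lowest in WT replicate 1, *Prkacb* is high in both libraries numbered 4, and *Efcab7* is high in both libraries labelled WT.

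Profiles were compared by the root mean square difference of the log2 values, centred on each gene's mean, over 5 libraries and against 10785 other gene sums. The genes nearest to *Ptch1* were *Ttyh2* and *Trim36* (0.071 and 0.075), and those nearest to *Cdon* were *Klf6* and *Mlf1* (0.049 and 0.050). *Zfp445* and *Ankfy1* were nearest to *Smo*, *Trib2* and *Pym1* to *Sufu*, *Acsl6* and *Pdxp* to *Gli2*, *Slc35b3* and *Rint1* to *Gli3*, and *Tmem9b* and *Smim19* to *Boc*. No member was among the 2 nearest genes of another. With only 2 places among 10785 gene sums, this does not show whether the members vary together. Between members the distance ran from 0.19 for *Smo* and *Gli3* to 1.05 for *Ptch1* and *Cdon*, whose profiles were the least alike among the pairs of members, and *Cdon* held place 10339 from *Ptch1*. *Gli3* held place 3339 from *Smo*, and *Smo* held place 3116 from *Gli3*. Both vary little, with a root mean square of 0.12 and 0.13 around their own means, and this distance is small between flat profiles.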

How the data were processed

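Poly(A) RNA of 5 NSPC cultures (500 ng each) was sequenced as stranded libraries. Per the labels and methods, the authors estimated transcript abundance with Salmon 0.10.2 on GRCm38.p6 (mm10) and normalized counts with DESeq2 1.22.0 in R 3.6.1. The deposited signal holds counts scaled by a size factor per library, with 0.5 added. Once this 0.5 was taken off, 100% of values in each library were whole multiples (tolerance 0.1) of a step between 0.981 and 1.20, which gave the counts. The deposited TPM score is the authors' own and served for levels between genes and for an alternative. The deposited mean, fold change, p-value and adjusted p-value are the authors' comparison and were not used. No column with values of a single sample was left out.

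Of 22530 lines, 303 repeated a transcript and were dropped. limma 3.58.1 (R 4.3.3; eBayes, Benjamini-Hochberg over all features, pseudocount 1) compared the labels over 5 libraries without covariate, with edgeR 4.0.16 (quasi-likelihood) and DESeq2 1.42.0 as alternatives. Only the fits of gene sums by limma, edgeR and DESeq2 over 5 libraries were also run on simulated counts. The fits of transcripts, with a block or without a library were not. A gene that was not called is not thereby shown to be unchanged. Fold changes are on the log2(value + 1) scale, which understates those of low genes. A count of 0 was taken to allow 3 counts. Tables and figures were made with pandas 2.3.3, numpy 2.4.6, scipy 1.17.1 and matplotlib 3.10.9. Symbols are those of the table. The filter behind its list is not given in the sources used here, and a gene not analysed here is not thereby absent from the cells.

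The members, lists and the rule for named genes were chosen with earlier results of these data known. The rule took the 7 members, their transcripts with at least 5% of the gene sum, per list the genes called and the 3 largest differences at a mean of at least 50, *Gli1*, *Hhip*, *Gas1*, *Ngfr* and the 2 nearest profiles per member. *Dhh*, *Evc*, *Evc2*, *Prkar1a*, *Nkx6-2*, *Zic1*, *Olig1*, the single astrocyte and neuronal markers and ENSMUST00000195756 fall outside the rule and were chosen with their values in view.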

Additional observations from a re-analysis of the deposited data

How the results depend on the processing

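Of 98 alternative values of the 7 members' differences, 91 kept their direction and none passed the threshold. These counts include values that could not change. For members and named pathway genes alike, a minimum mean of 10 normalized counts repeats the main difference. The block by replicate number repeats the difference without p75NTR-/- replicate 2. For members with a single listed transcript, the highest transcript alone also repeats the main difference. Leaving out single libraries gave -1.24 to 0.16 for *Ptch1*, -0.21 to 0.040 for *Smo*, -0.57 to 0.062 for *Gli2*, -0.18 to 0.16 for *Gli3* and -0.034 to 1.18 for *Cdon*, and the members' median ran from -0.19 (without WT replicate 4) to -0.0097 (without p75NTR-/- replicate 4). On TPM, *Gli3* was at 0.0020. Of 216 values of the named pathway genes, 205 kept their direction, and leaving out single libraries reversed *Disp1* (-0.26 to 0.16), *Gas1* (-0.047 to 0.94), *Hhip* (-0.26 to 0.24), *Lrp2* (-0.21 to 0.58), *Tulp3* (-0.14 to 0.89), *Stk36* (-0.81 to 0.032), *Prkacb* (-0.94 to 0.35), *Ccnd1* (-0.20 to 1.94) and *Ccnd2* (-0.33 to 1.05). Without WT replicate 1, *Ptch1*, *Smo* and *Cdon* reversed, as did *Disp1*, *Hhip*, *Tulp3*, *Stk36*, *Ccnd1* and *Ccnd2*.

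The count of gene sums called was 1, and 0 with edgeR (260 at an unadjusted p under 0.05), 7 with DESeq2, and 0 to 1 when single libraries were left out. It was 0 without WT replicate 1 (198 at an unadjusted p under 0.05) and without p75NTR-/- replicate 2 (128), and 1 without WT replicate 4 (1759), p75NTR-/- replicate 1 (135) or p75NTR-/- replicate 4 (1370), against 262 over all libraries. The count of transcripts called was 3, and 0 with a pseudocount of 5 (755 at an unadjusted p under 0.05), 0 with edgeR (534), 28 with DESeq2, 31 with no minimum of the mean, and 0 to 0 when any single library was left out. The cause was not tested. With the replicate number as a block, 0 gene sums (240 at an unadjusted p under 0.05) and 0 transcripts (678) were called, and no member changed direction. In that fit p75NTR-/- replicate 2 is alone under its number and adds nothing to the difference, which rests on the replicates numbered 1 and 4. The numbers name no shared litter or day in the labels, the correlation of deviations from the label means was 0.26 for number 1 and 0.48 for number 4 over 10786 genes, and with 2 pairs the numbers are not shown to pair the libraries. The depth gives *Gli3* a counting error of 11.1% in a library, which is not the smallest difference that the comparison could detect. The 95% interval of its difference between labels was -0.49 to 0.48 on the log2 scale.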

Other observations

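ENSMUST00000195756, the short *Ptch1* form without an annotated stop codon, had 25.0 normalized counts in WT replicate 4 and 10.6 in p75NTR-/- replicate 4, and 0 in the other 3 libraries. These are 24 and 10 counts, at most 1.84% of the *Ptch1* sum.

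Several genes of the pathway lists differed in the libraries numbered 4 irrespective of the label. The share over all gene sums was not counted. The first principal component of 10786 gene sums (51.7% of the variance) also set these libraries apart, so that the pattern is not particular to the pathway. *Zic1*, whose product can bind Gli proteins, had 43.7 and 90.9 normalized counts there and 2.40 to 3.93 in the other 3 libraries. *Prkacb* was higher in these libraries and *Olig2* lower, and among the members *Gli2* was higher by 0.60 and *Sufu* lower by 0.45 on the log2 scale. Part of the *Gli2* difference lay in the low p75NTR-/- replicate 1, at 58.4 normalized counts. Replicate numbers were not said to mark a litter or day, and no test was made of groups found in the data.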
